A study of Oryza sativa with 5 samples.

Results

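The silicon transporter genes Lsi1, Lsi2, Lsi3 and Lsi6 were followed in rice (Oryza sativa) root transcriptomes of plants that differ by label in OsNAC6, a NAC transcription factor gene. Members were all transcripts with identifiers that begin with Os02t0745100 (Lsi1), Os03t0107300 (Lsi2), Os10t0547500 (Lsi3) or Os06t0228200 (Lsi6) in the 3 deposited tables. This gave 5 transcripts of 4 loci, out of 40925 transcripts of 34330 loci, with Lsi6 represented by the transcripts Os06t0228200-01 and Os06t0228200-03 and each of the other genes by 1 transcript. By their identifiers the loci lie on chromosomes 2 (Lsi1), 3 (Lsi2), 10 (Lsi3) and 6 (Lsi6).

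The libraries came from roots at an age of 2 weeks, of seedlings grown under normal conditions without a stress treatment. RCc3::OsNAC6 plants carry OsNAC6 behind the root promoter RCc3, and GOS2::OsNAC6 plants carry it behind the promoter GOS2, which is active in the whole plant. Both are in the cultivar Nipponbare, and their reference was nontransgenic (NT) Nipponbare. The nac6 plants are a knockout with a T-DNA insertion in OsNAC6 in the cultivar Hwayoung, and their reference was NT (Hwayoung). Each of the 5 groups had 1 library, so no difference below has a replicate check. The transgenic lines had been selected over several generations for normal growth. Which line was sequenced, and from how many plants, was not given in the sources used here.

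Rice accumulates silicon, which enters roots as silicic acid and strengthens cell walls. Lsi1 is an aquaporin-like channel of the NIP subfamily that lets silicic acid into the exodermis and endodermis from the soil side. Lsi2 is an efflux transporter on the opposite side of the same cells, and the pair passes silicon towards the stele. Lsi6 is the closest relative of Lsi1. It is known for unloading silicon from the xylem in leaf sheaths, leaf blades and nodes, and in roots it is found mostly towards the tips. Lsi3 is a relative of Lsi2 that acts in nodes and in the root pericycle. Lsi1 and Lsi2 also carry arsenite, which resembles silicic acid in shape.

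The libraries held between 22909719 and 26838552 reads, recovered from the deposited normalized counts. Levels are given as RPM, the reads of a transcript scaled to 1000000 reads in its library, and may be set side by side across tables because they come from the reads. RPM is not corrected for transcript length, so levels of different genes are not compared. Errors are counting-error standard errors and intervals are at the 95% level. Both leave out the variation between plants, and neither tests the genotypes. OsNAC6 itself (Os01t0884300-01) followed 1 of the 3 labels in direction. It had 233 RPM for the library labelled RCc3::OsNAC6 (log2 ratio -0.02 ± 0.03) and 279 RPM for the one labelled GOS2::OsNAC6 (0.37 ± 0.03), against 232 RPM in NT (Nipponbare). The library labelled nac6, a knockout by label, had 359 RPM, against 322 RPM in NT (Hwayoung) (0.31 ± 0.03). Directions below are therefore between libraries by their labels. RCc3, a root marker gene, was detected in every library, and the summed level of the 4 RCc3-like loci was 1245 and 1572 RPM in the libraries labelled RCc3::OsNAC6 and GOS2::OsNAC6, against 780 RPM in NT (Nipponbare), and 212 RPM in that labelled nac6, against 231 RPM in NT (Hwayoung).

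The main measure was the log2 ratio of the deposited normalized counts within a table, with 1 added to both values. A transcript was counted as past the threshold at a 2-fold difference, the criterion of the study. All 5 silicon transporter transcripts passed the filter on low values, a mean normalized count of 10 or more in the pair. In the RCc3::OsNAC6 comparison 0 of 5 were past 2-fold, where 10.5% of 32487 transcripts were (4.47% higher and 6.03% lower). In the GOS2::OsNAC6 comparison it was also 0 of 5, where 3.84% of 31987 transcripts were (1.83% higher and 2.00% lower). In the nac6 comparison 2 of 5 were past 2-fold, where 9.95% of 30767 transcripts were (6.30% higher and 3.65% lower). These were both transcripts of Lsi6 and both were lower. As isoforms of a locus can share reads, they are 1 observation and not 2.

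Of the influx channels, Lsi1 (Os02t0745100-01) was among the transcripts with the most reads in every library. It had 13986 reads in the library labelled RCc3::OsNAC6, or 539 ± 6.06 RPM, and 7636 reads in the one labelled GOS2::OsNAC6, or 319 ± 4.85 RPM, against 10698 reads in NT (Nipponbare), or 399 ± 5.12 RPM. The library labelled nac6 had 13429 reads or 586 ± 6.72 RPM, against 15198 reads or 645 ± 6.95 RPM in NT (Hwayoung). Between 99.2% and 99.8% of all transcripts had fewer reads. The highest Lsi1 level was 2.02-fold the lowest. No 2 neighbouring libraries in the order of levels had overlapping intervals.

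The log2 ratio of Lsi1 was 0.41 ± 0.02 for RCc3::OsNAC6, a normalized count of 7004 against 5288 in NT (Nipponbare). For GOS2::OsNAC6 it was -0.22 ± 0.03, with 4166 against 4853. The directions were opposite, and both intervals left out 0. For nac6 the ratio was 0.02 ± 0.02, with 7144 against 7060 in NT (Hwayoung) and an interval from -0.03 to 0.06. This last value depended on the scaling. It was -0.14 ± 0.02 when libraries were scaled by their read totals, with an interval that left out 0. Among all transcripts tested, 20.6% had a higher ratio than Lsi1 for RCc3::OsNAC6 and 28.3% a lower one for GOS2::OsNAC6, so neither lay at the edge of the distribution.

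**Figure D1:**
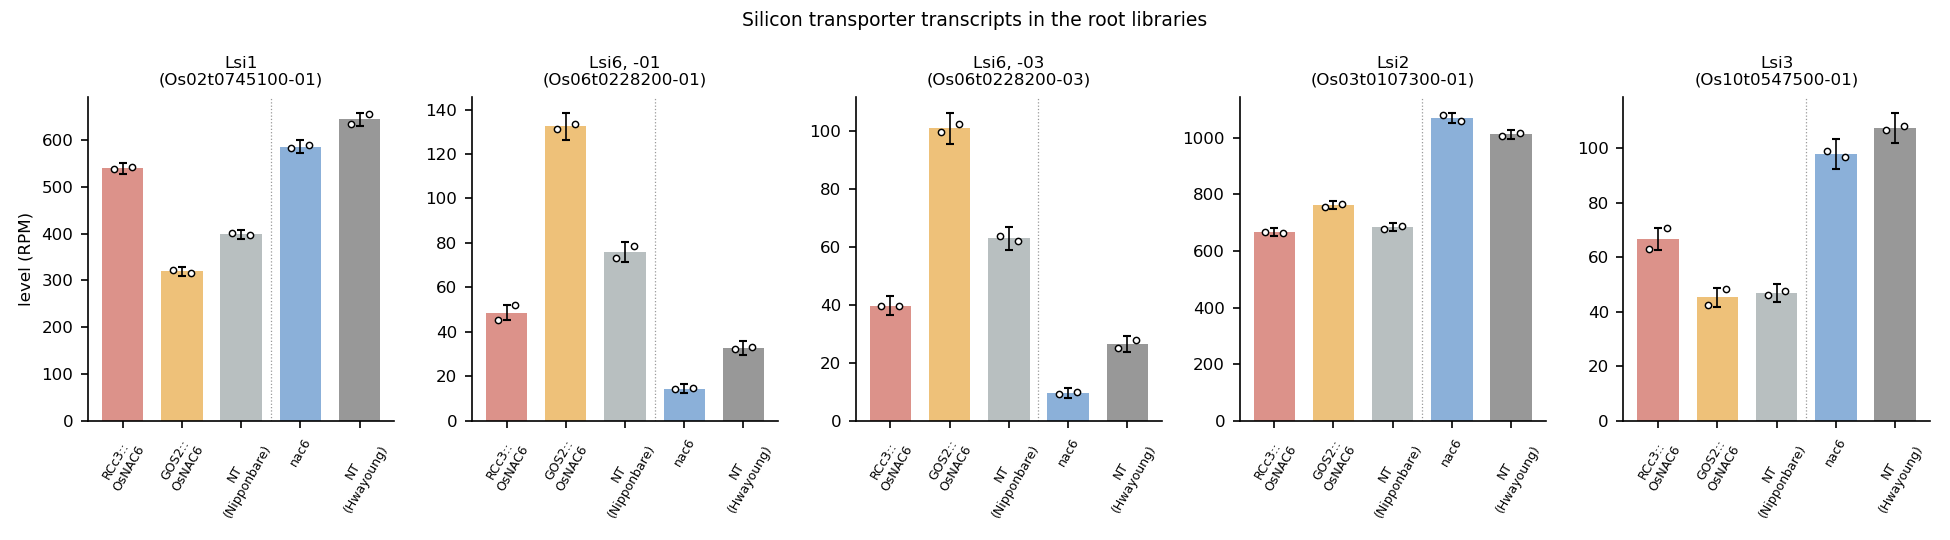
Level of each silicon transporter transcript (y axis, RPM) in libraries labelled RCc3::OsNAC6, GOS2::OsNAC6 or NT (Nipponbare), left of the dotted line, and nac6 and NT (Hwayoung), right of it. Bars are the level of the single library, error bars its 95% counting interval and open points its 2 count columns, each scaled to its own total; as a fold, both Lsi6 transcripts span the widest range, 9.16-fold for Os06t0228200-01, from 14.4 to 132 RPM.

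As a fold, Lsi6 varied more than the other members. Os06t0228200-01 had 1261 reads or 48.6 ± 1.82 RPM in the library labelled RCc3::OsNAC6 and 3169 reads or 132 ± 3.12 RPM in that labelled GOS2::OsNAC6, against 2034 reads or 75.8 ± 2.23 RPM in NT (Nipponbare). In the library labelled nac6 it had 331 reads or 14.4 ± 1.06 RPM, against 773 reads or 32.8 ± 1.57 RPM in NT (Hwayoung). The library labelled GOS2::OsNAC6 was the highest and that labelled nac6 the lowest, 9.16-fold apart, and no intervals overlapped. The transcript Os06t0228200-03 kept the same order, with 39.7 and 101 RPM in the libraries labelled RCc3::OsNAC6 and GOS2::OsNAC6, against 63.0 RPM in NT (Nipponbare), and with 9.52 RPM in that labelled nac6, against 26.5 RPM in NT (Hwayoung).

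For RCc3::OsNAC6 the log2 ratio of Lsi6 was -0.67 ± 0.07 for Os06t0228200-01, or 62.9% of the NT (Nipponbare) value, and -0.70 ± 0.08 for Os06t0228200-03. For GOS2::OsNAC6 the ratios were 0.90 ± 0.05 and 0.78 ± 0.06, 1.87-fold higher for Os06t0228200-01, with an interval from 1.74 to 2.02. Of all transcripts tested, 2.53% had a higher ratio than Os06t0228200-01 in that comparison. It was short of the 2-fold criterion, which its interval reached. Lsi6 was therefore lower in one library labelled as an overexpressor and higher in the other, relative to the same NT (Nipponbare) library.

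For nac6 the log2 ratio was -1.02 ± 0.13 for Os06t0228200-01, a normalized count of 176 against 359 in NT (Hwayoung), and -1.31 ± 0.15 for Os06t0228200-03, with 116 against 290. The interval of Os06t0228200-01, from -1.27 to -0.78, spanned the threshold, and that of Os06t0228200-03, from -1.61 to -1.02, lay past it. Of all transcripts tested, 3.43% had a lower ratio than Os06t0228200-01 and 1.59% a lower one than Os06t0228200-03. With 10 in place of 1 added to both values, Os06t0228200-01 had a ratio of -0.99 and 1 of the 2 transcripts was past 2-fold.

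The reads of Os06t0228200-03 amounted to 81.6% of those of Os06t0228200-01 for the library labelled RCc3::OsNAC6 and to 76.2% for the one labelled GOS2::OsNAC6, against 83.1% in NT (Nipponbare). They amounted to 65.9% in the library labelled nac6, with an interval from 52.5% to 82.7%, against 80.7% in NT (Hwayoung), from 70.2% to 92.9%. The intervals overlapped within each comparison. Overlap of separate intervals is not a test of their difference, and a difference in isoform use was not tested.

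Since Lsi6 is also a gene of leaves, transcripts of shoot tissue were examined beside it. The 45 loci described as photosystem, chlorophyll a/b-binding or small Rubisco subunit proteins summed to 37.0 and 52.1 RPM in the libraries labelled RCc3::OsNAC6 and GOS2::OsNAC6, against 56.5 RPM in NT (Nipponbare), and to 59.0 RPM in that labelled nac6, against 54.9 RPM in NT (Hwayoung). Between 3 and 5 of the 45 had 0 reads in a library. Of those that passed the filter, 6 of 17 were at least 2-fold lower for RCc3::OsNAC6, beside 6.03% of all transcripts, with a list median of -0.73. For GOS2::OsNAC6 1 of 17 was lower, beside 2.00%, with a median of -0.02. In the nac6 comparison 1 of 20 was lower and 2 of 20 were higher, beside 3.65% and 6.30%, with a median of 0.31. The shoot sum and Lsi6 were both lower in the library labelled RCc3::OsNAC6 than in its control. In the library labelled GOS2::OsNAC6 Lsi6 was higher, while the sum was slightly lower in RPM and the list median was -0.02. Scaling by library totals, as in RPM, shifted all transcripts of that comparison by a median log2 of -0.10. In the library labelled nac6 the sum was higher and Lsi6 lower. No error was computed for the sums, so small differences between them give no direction. The part of shoot tissue in the Lsi6 levels was not tested. In whole roots, fewer cells that express a gene and less of its RNA in each cell cannot be told apart.

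Of the efflux transporters, Lsi2 (Os03t0107300-01) was the steadiest member. It had 17297 reads or 667 ± 6.74 RPM in the library labelled RCc3::OsNAC6 and 18227 reads or 762 ± 7.49 RPM in that labelled GOS2::OsNAC6, against 18371 reads or 685 ± 6.71 RPM in NT (Nipponbare). The library labelled nac6 had 24540 reads or 1071 ± 9.08 RPM, against 23873 reads or 1013 ± 8.71 RPM in NT (Hwayoung). The levels lay within 1.61-fold of each other, and those of RCc3::OsNAC6 and NT (Nipponbare) were neighbours with overlapping intervals. The log2 ratio was -0.07 ± 0.02 for RCc3::OsNAC6, whereas it was 0.25 ± 0.02 for GOS2::OsNAC6 and 0.24 ± 0.02 for nac6. With library totals the ratio for RCc3::OsNAC6 was -0.04 ± 0.02 and its interval included 0, while those for GOS2::OsNAC6 and nac6 were smaller, at 0.15 and 0.08.

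Lsi3 (Os10t0547500-01), which the tables describe only as a divalent ion symporter domain protein, had 1731 reads in the library labelled RCc3::OsNAC6, or 66.8 ± 2.13 RPM, and 1084 in that labelled GOS2::OsNAC6, or 45.3 ± 1.83 RPM, against 1258 in NT (Nipponbare), or 46.9 ± 1.76 RPM. The library labelled nac6 had 2244 reads or 97.9 ± 2.75 RPM, against 2535 reads or 108 ± 2.84 RPM in NT (Hwayoung). The log2 ratio was 0.48 ± 0.07 for RCc3::OsNAC6, with 17.0% of all transcripts higher. It was 0.05 ± 0.08 for GOS2::OsNAC6 and 0.02 ± 0.06 for nac6. Both of these intervals included 0, from -0.10 to 0.21 and from -0.09 to 0.13. Both values changed sign with library totals, to -0.05 ± 0.08 and -0.13 ± 0.06. The interval of the nac6 ratio then left out 0.

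**Figure D2:**
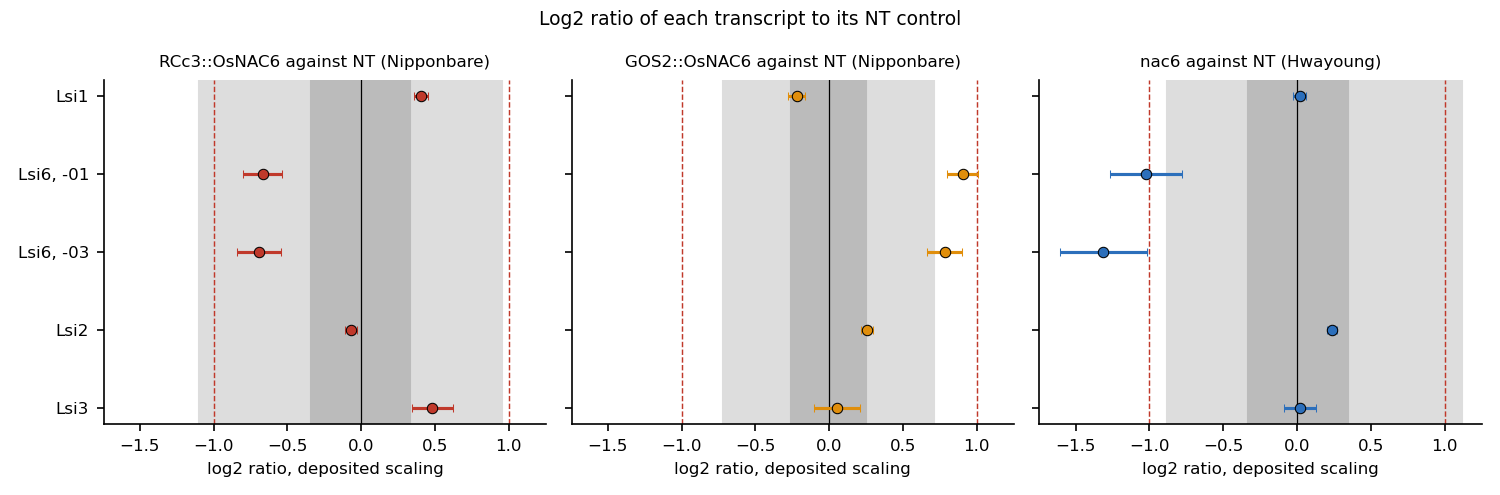
Log2 ratio of the deposited normalized counts (x axis) of each silicon transporter transcript (y axis) in the library labelled RCc3::OsNAC6, GOS2::OsNAC6 or nac6 over its NT control, with 95% counting intervals. Light and dark bands hold the central 90% and 50% of all transcripts tested, and dashed lines mark 2-fold; in the nac6 panel the Lsi6 transcripts lie at -1.02 and -1.31, outside the light band, and Lsi1, Lsi2 and Lsi3 lie inside the dark band.

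Ratios of reads between members inside a library do not depend on how libraries are scaled. For every Lsi2 read there were 0.809 Lsi1 reads in the library labelled RCc3::OsNAC6 (interval 0.785 to 0.833) and 0.419 in that labelled GOS2::OsNAC6 (0.404 to 0.434), against 0.582 in NT (Nipponbare) (0.564 to 0.601). In the library labelled nac6 there were 0.547 (0.532 to 0.563), against 0.637 in NT (Hwayoung) (0.620 to 0.654). The balance of the influx channel to the efflux transporter was thus highest in the library labelled RCc3::OsNAC6 and lowest in that labelled GOS2::OsNAC6, with NT (Nipponbare) between them. It was lower in the library labelled nac6 than in NT (Hwayoung), also without a choice of scaling.

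The balance between the related channels Lsi6 and Lsi1 differed most. Reads of Os06t0228200-01 amounted to 9.02% of those of Lsi1 for the library labelled RCc3::OsNAC6 and to 41.5% for the one labelled GOS2::OsNAC6, against 19.0% in NT (Nipponbare). They amounted to 2.46% in the library labelled nac6, against 5.09% in NT (Hwayoung). For the efflux transporters there were 0.100 Lsi3 reads for every Lsi2 read in the library labelled RCc3::OsNAC6 and 0.0595 reads in the one labelled GOS2::OsNAC6, against 0.0685 in NT (Nipponbare). The values were 0.0914 for the library labelled nac6, against 0.106 in NT (Hwayoung).

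**Figure D3:**
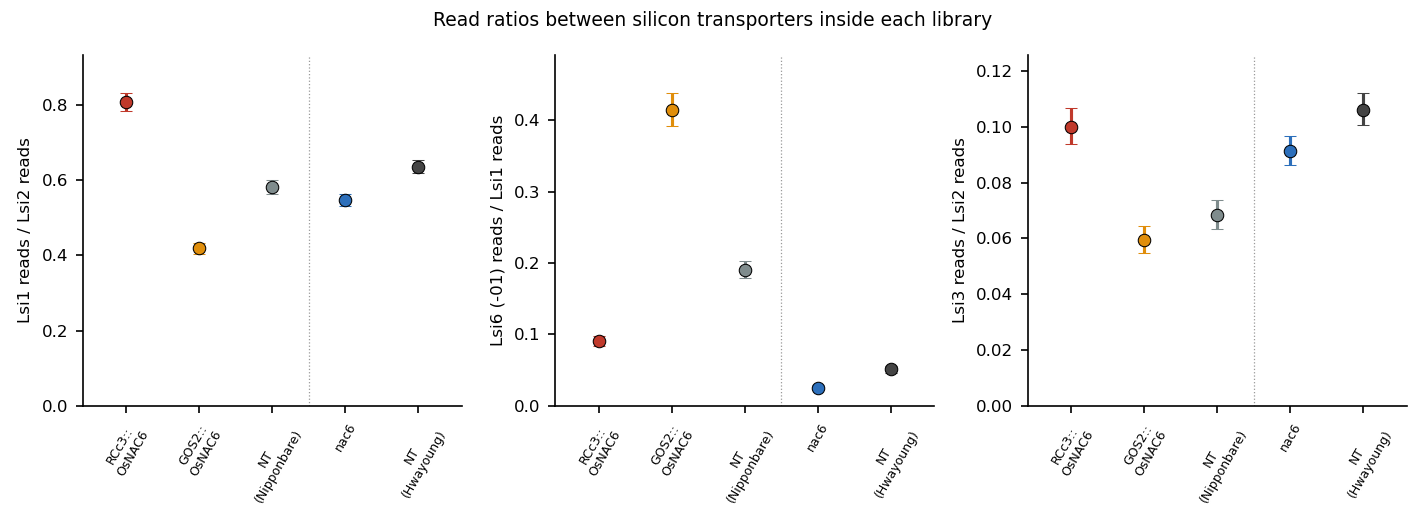
Reads of one silicon transporter divided by reads of another inside the same library (y axes, no unit) for the libraries on the x axis, with 95% counting intervals. Lsi6 over Lsi1 runs from 0.0246 in the library labelled nac6 to 0.415 in that labelled GOS2::OsNAC6, and Lsi1 over Lsi2 from 0.419 in that labelled GOS2::OsNAC6 to 0.809 in that labelled RCc3::OsNAC6.

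The libraries labelled with the same transgene were also compared with each other, on reads scaled to library totals. Lsi6 (Os06t0228200-01) was 2.72-fold higher in the library labelled GOS2::OsNAC6 than in that labelled RCc3::OsNAC6, with an interval from 2.49 to 2.97, and Os06t0228200-03 was 2.54-fold higher. Of 32132 transcripts, 11.5% were past 2-fold, 4.64% higher and 6.83% lower. Lsi1 had a log2 ratio of -0.76 ± 0.03, with 13.2% of transcripts lower, and Lsi3 of -0.56 ± 0.07. Lsi2 had 0.19 ± 0.02. In this pair the channels Lsi1 and Lsi6 lay on opposite sides, and so did the efflux transporters.

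The controls differed beyond counting error for every member, but the share of all transcripts that did so was not computed. In NT (Hwayoung), on reads scaled to library totals, Lsi6 (Os06t0228200-01) was at 43.3% of its NT (Nipponbare) level and Os06t0228200-03 at 42.1%, where 24.3% of 32071 transcripts were past 2-fold and 16.1% were at least 2-fold lower. Lsi3 was 2.29-fold higher in NT (Hwayoung), where 8.21% of transcripts were at least 2-fold higher. Lsi1 and Lsi2 were 1.62-fold and 1.48-fold higher, where 11.7% and 14.1% of transcripts had a higher ratio. For Lsi1, Lsi2 and Lsi3 the libraries labelled nac6 and NT (Hwayoung) held the top 2 levels of the 5 libraries, and for Lsi6 the lowest 2. In RPM, Lsi1, Lsi2 and Lsi3 thus differed more between the controls than between NT (Hwayoung) and the nac6 label. For Lsi6 the differences were of similar size. On library totals, Os06t0228200-01 had log2 ratios of -1.21 ± 0.08 between the controls and -1.18 ± 0.13 for nac6, within counting error of each other. In the deposited scaling its nac6 ratio was -1.02 ± 0.13. Library totals shifted all transcripts of the nac6 comparison by a median log2 of -0.15, so the near match depends on the scaling. Os06t0228200-03 differed somewhat more in the nac6 comparison. Whether the isoforms differ in this was not tested. Plants, growth and library could not be separated from the cultivar. Whether reads of both cultivars were assigned equally well to the genome build IRGSP-1.0 was not tested. The median ratio of all transcripts between the controls was not computed.

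Other NIP channels were taken from a list of 8 loci. In either overexpressor comparison, 0 of the 5 that passed the filter were past 2-fold, beside 10.5% (RCc3::OsNAC6) and 3.84% (GOS2::OsNAC6) of all transcripts. The median log2 ratios of the list were -0.17 (RCc3::OsNAC6) and -0.40 (GOS2::OsNAC6), where the medians of all transcripts were 0.01 and -0.01. For nac6 1 of 6 was higher, beside 6.30% of all transcripts, with a median of 0.29. The channel past 2-fold there was OsNIP4;1 (Os01t0112400-01), with 45 reads in the library labelled nac6, against 21 in NT (Hwayoung). Its log2 ratio was 1.20 ± 0.51, with an interval that spanned the threshold. OsNIP3;1 (Os10t0513200-00), a boron channel, had the most reads and log2 ratios of -0.17 ± 0.04, 0.25 ± 0.04 and -0.29 ± 0.06 for RCc3::OsNAC6, then GOS2::OsNAC6, then nac6. OsNIP1;1 had 0.71 ± 0.25, -0.46 ± 0.32 and 0.88 ± 0.16, and OsNIP1;3 had -0.87 ± 0.21, -0.48 ± 0.21 and 0.92 ± 0.23. OsNIP3;2 had -0.98 ± 0.13 for nac6.

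Loci described by silicon, arsenite or anion transport words numbered 6 beside the members, and all passed the filter. Of these, 0 were past 2-fold for GOS2::OsNAC6 and nac6, beside 3.84% and 9.95% of all transcripts. For RCc3::OsNAC6 1 was lower by 2-fold, beside 6.03%. It was the citrate transporter family transcript Os10t0447900-01, with 262 reads in the library labelled RCc3::OsNAC6, against 696 in NT (Nipponbare), and a log2 ratio of -1.38 ± 0.14. Os02t0822100-01, a divalent ion symporter domain protein by description as is Lsi3, had 1661 reads in the library labelled GOS2::OsNAC6, against 1234 in NT (Nipponbare), a ratio of 0.69 ± 0.07. The list had a median of 0.05 for RCc3::OsNAC6, of -0.17 for GOS2::OsNAC6 and of -0.18 for nac6. OsABCC1 (Os04t0620000-01) is in this list and also in that of arsenic handling below. Not all 6 loci are described as carriers of silicon or arsenite, for example the phosphate/phosphoenolpyruvate translocator-like Os03t0286300-01.

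Because Lsi1 and Lsi2 carry arsenite, 8 loci of arsenic handling were set beside them. None of 7 was past 2-fold for RCc3::OsNAC6, beside 10.5% of all transcripts, and 1 of 7 was higher for GOS2::OsNAC6, beside 1.83%. In the nac6 comparison 1 of 8 was higher and 2 of 8 were lower, beside 6.30% and 3.65%. OsHAC1;1 (Os02t0102300-01), an arsenate reductase that produces arsenite in roots, had 1962 reads for the library labelled RCc3::OsNAC6 and 5893 for the one labelled GOS2::OsNAC6, against 2939 in NT (Nipponbare), and 253 in that labelled nac6, against 927 in NT (Hwayoung). Its log2 ratios were -0.57 ± 0.06, 1.27 ± 0.04 and -1.67 ± 0.14. In RPM its libraries stood in the same order as those of Lsi6. The share of all transcripts with this order was not computed, so the likeness is not a result particular to OsHAC1;1. For nac6, OsPCS1 (Os05t0415200-00), a phytochelatin synthase gene, had -1.25 ± 0.57 on 15 reads, against 44 in NT (Hwayoung), and OsARM1 (Os05t0442400-01), a MYB gene known to act on Lsi genes under arsenite, had 1.63 ± 0.21 on 315 reads, against 115. OsPT8 (Os10t0444700-01), a phosphate transporter that also takes up arsenate, had -0.86 ± 0.05, -0.07 ± 0.04 and 0.92 ± 0.05. The medians of the list were 0.10, -0.05 and 0.06.

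A list of 33 loci was taken by the description UPF0497, a broad family of uncharacterised proteins that includes the Casparian strip membrane proteins, together with the locus Os04g0684300. Which of them act at the Casparian strip is not given by the tables. Of those that passed the filter, 0 of 30 were past 2-fold for RCc3::OsNAC6, where 10.5% of all transcripts were. For GOS2::OsNAC6 1 of 31 was higher, beside 1.83% of all transcripts, and for nac6 1 of 29, beside 6.30%. The medians of the list were 0.02, 0.03 and 0.20. The loci past 2-fold were Os04t0281900-01, with 1.29 ± 0.64 for GOS2::OsNAC6, and Os05t0344400-01, with 1.11 ± 0.14 for nac6. The most abundant, Os11t0649600-01, had log2 ratios of -0.15 ± 0.04, 0.15 ± 0.04 and 0.12 ± 0.04. Os07t0442900-01 had 2404 reads for the library labelled RCc3::OsNAC6 and 667 for the one labelled GOS2::OsNAC6, against 1315 in NT (Nipponbare), with ratios of 0.89 ± 0.07 and -0.71 ± 0.09. Os04g0684300, chosen as an endodermis marker but described in the tables as a non-protein coding transcript, had 0.04 ± 0.13, -0.03 ± 0.14 and -0.51 ± 0.24. The summed level of the list lay between 534 and 564 RPM in all 5 libraries.

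**Figure D4:**
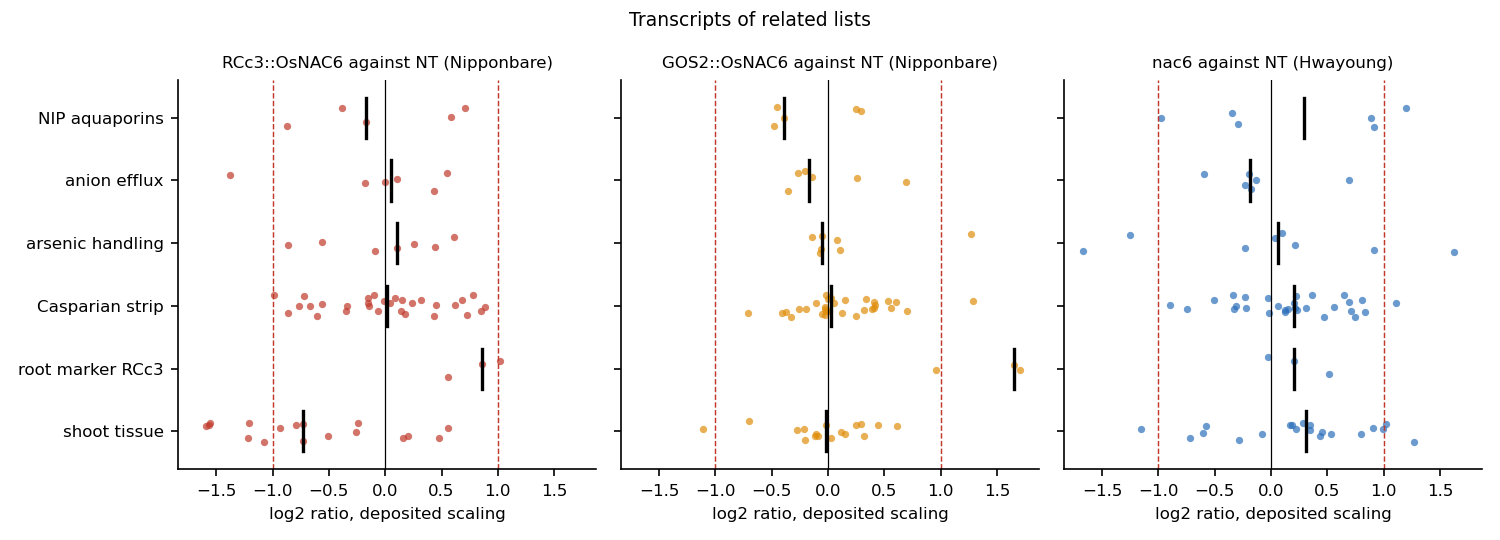
Log2 ratio of the deposited normalized counts (x axis) over the NT control for the transcripts of each related list (y axis) that passed the filter, 1 point per locus, with the list's median as a black bar and 2-fold as dashed lines. Most points lie within 2-fold, as for the 30 loci of the UPF0497 list (marked Casparian strip) in the RCc3::OsNAC6 panel; OsHAC1;1 is the arsenic handling point at 1.27 for GOS2::OsNAC6 and at -1.67 for nac6.

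The transcripts whose levels over the 5 libraries were most like those of each member were sought among 19544 others with a mean of at least 100 reads. Likeness was the Euclidean distance of log2(RPM + 1) after centring on each transcript's mean. For Lsi6 the nearest was Os02t0276200-01, described as an isochorismatase family protein, at a distance of 0.20. It had 31.2 and 88.4 RPM in the libraries labelled RCc3::OsNAC6 and GOS2::OsNAC6, against 52.9 RPM in NT (Nipponbare), and 9.86 RPM in that labelled nac6, against 19.0 RPM in NT (Hwayoung). The hypothetical protein Os09t0509050-00 and the lipid transfer protein-like Os12t0114800-01 followed at 0.28 and 0.33.

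For Lsi1 the nearest were Os09t0514300-01, Os06t0566201-01 and Os01t0738800-01, at 0.08, 0.12 and 0.13, none with a described function. For Lsi2 they were Os06t0630300-02 and Os08t0151600-01, both conserved hypothetical proteins, and the ankyrin repeat protein Os03t0281100-00, at 0.06, 0.07 and 0.09. For Lsi3 they were the acyl-CoA oxidase-like Os06t0347100-01 at 0.15, the phosphoglycerate mutase family transcript Os03t0101500-01 at 0.15 and the hypothetical protein Os10t0547650-00 at 0.16. The last is close to Lsi3 by its locus number, and whether both share reads was not given in the sources used here. Distances leave out counting error, which weighs more at low levels. The nearest transcript had 6.27 to 13.5 RPM for Lsi1 and 10.2 to 16.1 RPM for Lsi2. Distances of different members are therefore not compared. With 5 single libraries these are descriptions of likeness.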

How the data were processed

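Total RNA of rice roots was sequenced as strand-specific Illumina libraries, 1 library for each of 5 groups. The authors deposited 3 tables, each for a pair of libraries, and the labels name the build IRGSP-1.0. The aligner, annotation release and counting rule were not given in the sources used here. The deposited values are a signal, the mean normalized count of a library, divided by size factors within its table. The fold changes and p-values in the tables are the authors' own comparison and were not used. Tables number their libraries 1 to 5, and these numbers were matched to the numbered sample descriptions.

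Each deposited value was split into whole reads of 2 count columns, each with its own size factor. This succeeded for 100% of values above 0, and for 100% of 39968 simulated transcripts of the RCc3::OsNAC6 comparison. NT (Nipponbare), which occurs in 2 tables, gave identical reads for 39372 of 39372 shared transcripts. The columns differed with a mean chi-square of 1.77 over transcripts with at least 20 reads and were treated as repeat counts of 1 library. Counting variances were multiplied by this value. Intervals cover counting error only.

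Ratios were log2((case + 1)/(control + 1)) within a table, with a filter at a mean of 10 normalized counts and a 2-fold threshold. Comparisons across tables used recovered reads scaled to library totals and were added after values had been seen. No p-value was computed, as there was 1 library per group. The transcript with the most reads stood for a locus in lists. Named were all members, list genes past 2-fold and up to 4 of the most abundant of each list, and the 3 nearest patterns of each member. Other list genes with values were chosen after these were seen. Members and lists were chosen with earlier results of these data known. Alternatives were other pseudocounts, filters, thresholds and scalings, single count columns and summed isoforms. No sequence or coordinate is given, because the gene table provided is of another assembly. Work was done in Python 3.11.15 with numpy 2.4.6 and pandas 2.3.3.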

Additional observations from a re-analysis of the deposited data

Results flagged for a closer look

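Lsi1, Lsi2 and both Lsi6 transcripts had log2 ratios of opposite sign in the RCc3::OsNAC6 and GOS2::OsNAC6 comparisons with NT (Nipponbare). Each counting interval left out 0 in the deposited scaling. The Lsi6 transcripts can share reads and are 1 observation. The share of all transcripts with such opposite signs was not computed, so this is not a result particular to the members. With 1 library per group the difference between these ratios was not tested. Both comparisons share the NT (Nipponbare) library. Lsi1 (Os02t0745100-01) had 0.41 for RCc3::OsNAC6 and -0.22 for GOS2::OsNAC6. Lsi2 (Os03t0107300-01) had -0.069 and 0.25 in the same order. With library totals its ratio for RCc3::OsNAC6 was -0.04 ± 0.02, with an interval that included 0. Lsi6 had -0.67 and 0.90 for Os06t0228200-01 and -0.70 and 0.78 for Os06t0228200-03. None of these ratios was past 2-fold.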

How the results depend on the processing

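Of 72 values of the 12 member ratios under alternatives, 67 stayed within the counting interval of the ratio and 5 moved beyond it. The 67 do not measure robustness, as many could hardly move. Summed isoforms repeat the main value for Lsi1, Lsi2 and Lsi3, which have 1 transcript each. Other pseudocounts change ratios of such high counts little. Library totals, the only other scaling, gave all 5 moved values, out of 12 ratios. For GOS2::OsNAC6, Lsi1 moved to -0.32 and Lsi2 to 0.15. For nac6, Lsi1 moved to -0.14, Lsi2 to 0.081 and Lsi3 to -0.13. Library totals lowered all transcripts by a median of 0.10 for GOS2::OsNAC6 and 0.15 for nac6 on the log2 scale, relative to the deposited scaling. Of the 72, 5 had the other sign, in Lsi1 for nac6 and in Lsi3 for GOS2::OsNAC6 and nac6. Lsi6 kept its direction under every alternative run. Its transcripts past 2-fold for nac6 numbered 2, with 1 after adding 10 to both values and 0 at a 4-fold threshold. Over all transcripts, 3411 were past 2-fold for RCc3::OsNAC6, with 5909 without a filter, 1901 with a filter at 50 and 670 at 4-fold. For GOS2::OsNAC6 it was 1227, with 595 after adding 10, 1906 and 1923 from single count columns, 3434 without a filter, 494 with a filter at 50 and 132 at 4-fold. For nac6 it was 3061, with 2009 after adding 10, 5902 without a filter, 1582 with a filter at 50 and 616 at 4-fold. Under library totals the split of higher to lower was 414 higher and 857 lower for GOS2::OsNAC6, where the deposited scaling gave 586 higher and 641 lower. For nac6 it was 1462 higher and 1747 lower, where the deposited scaling gave 1938 higher and 1123 lower. No paired analysis was possible because each group had 1 library, and no library could be left out.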
